A study of Mus musculus with 3 samples.

Results

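The genes described here encode the core machinery of pre-mRNA splicing and the packaging of nascent transcripts in the mouse macrophage line RAW264.7, before and after lipopolysaccharide (LPS), a glycolipid of the Gram-negative outer membrane that activates macrophages. They were taken by gene symbol: SR proteins (Srsf), SF3a and SF3b subunits (Sf3a, Sf3b), heterogeneous nuclear ribonucleoproteins (Hnrnp) and proteins of the small nuclear ribonucleoproteins (Snrp), each with at least 1 probe set that the platform annotation assigns to 1 gene. This gave 44 of 12393 named genes, read by 115 probe sets. The groups were 9 SR proteins, 9 SF3 subunits, 18 hnRNPs, 5 Sm core proteins and 3 proteins specific to the U1 or U2 particle. Another 5 symbols of these families, namely Hnrnpa3, Hnrnpa1l2-ps2, Snrpa, Snrpd1 and Snrpd2, appear only on probe sets shared with other genes and were not read.

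Gene expression was measured on 3 arrays, 1 each at 0, 2 and 12 h of LPS, all from the same line. The labels name no modification of the cells and give no LPS dose. There is no array of untreated cells kept for 2 or 12 h, so effects of LPS and of time in culture cannot be told apart. Since each time rests on 1 array, without replicates, differences were not tested and have no p-value, and the number of arrays limits the precision. Signals are linear intensities scaled to a common trimmed mean, so a change in total mRNA would not be seen, and less RNA per cell and fewer cells cannot be told apart. A signal under 34.96, the 40th percentile of all values, is called under the floor. The size that counts here is a ratio of at least 1.5-fold between 2 arrays, a log2 difference of 0.585, and counts at 2-fold are given beside it. The only error the arrays hold is the spread between probe sets of 1 gene: among 29 splicing genes its pooled SD on the log2 scale was 0.29 when 2 h was set against 0 h, 0.35 when 12 h was set against 0 h, and 0.34 when it was set against 2 h. Among all genes with several probe sets these SDs were 0.32, 0.34 and 0.31. The spread does not include differences between cultures.

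The label of the cells was checked on marker lists. All 9 macrophage markers on the array were at or above the floor on each array, among them Lyz2 (lysozyme) and Csf1r, the receptor for the macrophage growth factor. Of 23 markers of fibroblasts, T cells, B cells, epithelium and endothelium, 3 were at or above the floor at 0 and 2 h (Col1a2, Krt8 and Kdr) and 4 at 12 h, with Ms4a1 added. The cells had responded: the signal of Tnf, the gene of the cytokine TNF, was 184 at 0 h, 3346 at 2 h and 1343 at 12 h.

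Splicing removes introns through the spliceosome, which is built from small nuclear RNA-protein particles. Sm proteins form a ring around most of the small nuclear RNAs. The U1 particle marks the 5′ splice site, and the U2 particle, carrying SF3a and SF3b, settles on the branch point. SR proteins, named for domains rich in arginine and serine, bind exons and recruit this machinery. The hnRNPs coat nascent RNA and often act against it, and several of them also govern mRNA stability and export. In macrophages, alternative splicing and the stability of inflammatory mRNAs are known layers of control over the response to LPS.

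The stretches of DNA just upstream of the transcription start were read for these genes from a set of promoter sequences (RefSeq, GRCm38.p6). This set held 39 of the 44 genes with 55 start sites. Hnrnpll, Hnrnpul2, Sf3b4, Sf3b5 and Snrpb were missing from the set, although RefSeq itself lists all 44 genes. Shown are the 250 bases before the start of 5 genes with 1 listed start that lie at the ends of the ranges described below: Snrpe and Sf3a2 were the lowest and the highest at 2 h, and Hnrnph3, Srsf9 and Srsf5 were among the lowest at 12 h. Capitals mark the letters CCGGAAG, the core bound by ETS transcription factors, on either strand. The stretches lie at chr1:133610281-133610530 (Snrpe, minus strand), chr10:80798485-80798734 (Sf3a2, plus), chr10:63023850-63024099 (Hnrnph3, minus), chr5:115326927-115327176 (Srsf9, plus) and chr12:80945249-80945498 (Srsf5, plus), each ending at the base before the annotated start.
Snrpe: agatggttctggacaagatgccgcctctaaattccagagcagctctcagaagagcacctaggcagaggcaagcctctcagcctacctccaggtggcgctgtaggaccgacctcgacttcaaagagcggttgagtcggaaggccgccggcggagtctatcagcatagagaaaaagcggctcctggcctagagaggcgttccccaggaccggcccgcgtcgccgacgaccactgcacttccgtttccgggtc
Sf3a2: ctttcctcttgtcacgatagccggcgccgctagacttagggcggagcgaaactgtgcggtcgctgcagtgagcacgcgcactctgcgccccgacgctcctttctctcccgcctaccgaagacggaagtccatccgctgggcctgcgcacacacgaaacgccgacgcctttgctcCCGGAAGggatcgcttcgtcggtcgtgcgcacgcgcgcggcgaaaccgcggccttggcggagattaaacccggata
Hnrnph3: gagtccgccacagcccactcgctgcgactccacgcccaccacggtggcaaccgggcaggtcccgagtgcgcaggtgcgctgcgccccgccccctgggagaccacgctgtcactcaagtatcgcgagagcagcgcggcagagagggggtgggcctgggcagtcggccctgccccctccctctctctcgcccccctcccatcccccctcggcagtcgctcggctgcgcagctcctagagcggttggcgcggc
Srsf9: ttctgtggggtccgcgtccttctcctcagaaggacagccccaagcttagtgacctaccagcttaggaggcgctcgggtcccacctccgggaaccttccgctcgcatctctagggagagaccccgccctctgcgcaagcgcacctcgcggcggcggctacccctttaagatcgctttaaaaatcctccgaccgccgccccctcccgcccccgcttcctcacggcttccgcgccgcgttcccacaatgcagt
Srsf5: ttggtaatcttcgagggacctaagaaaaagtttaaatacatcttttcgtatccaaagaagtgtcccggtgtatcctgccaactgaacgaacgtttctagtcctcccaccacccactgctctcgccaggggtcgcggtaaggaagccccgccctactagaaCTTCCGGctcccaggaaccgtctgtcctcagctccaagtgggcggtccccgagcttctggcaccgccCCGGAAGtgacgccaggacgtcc

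These promoters were rich in CpG, with 17 to 37 CpG in the 5 shown and a median of 19 over the 55 of the splicing genes, against a median of 6 over all 32851 promoters and 13 over the 12559 of genes on the array. The ETS core CCGGAAG was present in 18 of the 55 (32.7%), which belong to 14 of the 39 genes, against 6.91% of all promoters and 10.9% of those of array genes. By role, 6 of 7 SF3 subunits, 3 of 9 SR proteins, 1 of 4 Sm proteins, 2 of 3 U1 or U2 proteins and 2 of 16 hnRNPs held it. Here a gene counts if at least 1 of its start sites has a match. The same share over all genes was not taken, and differences between roles were not tested. Among the sequences shown, Sf3a2 has 1 match and Srsf5 has 2, and Snrpe, Hnrnph3 and Srsf9 have none. The letters GCATGCG, the core read by the factor NRF1, were in 7 of the 55 (12.7%), which belong to 4 of the 39 genes. They were in 3.02% of all promoters and 4.47% of those of array genes. The ETS and NRF1 strings both contain CG, and whether their shares go with CpG content was not tested. The GC box GGGCGG was in 65.5% (32.7% of all and 51.3% of array genes) and CCAAT in 43.6% (33.8% and 34.7%). TATAAA was in 9.09%, below the 12.4% of all promoters and about the 8.81% of those of array genes. All motifs were searched on both strands, and some start sites of 1 gene overlap, so the 55 are not independent. A match is a string of letters and not a measured binding site.

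Of the 44 genes, 43 were at or above the floor on all 3 arrays, a state that 59% of the 12393 named genes shared. The exception was Snrpn, an imprinted gene whose Sm protein replaces the product of Snrpb in neurons; its 1 probe set read 4.5, 4.5 and 2.6. It has no fold, and the counts below are over the other 43. Where nothing else is said, the signals of a gene are those of its brightest probe set.

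**Figure D1:**
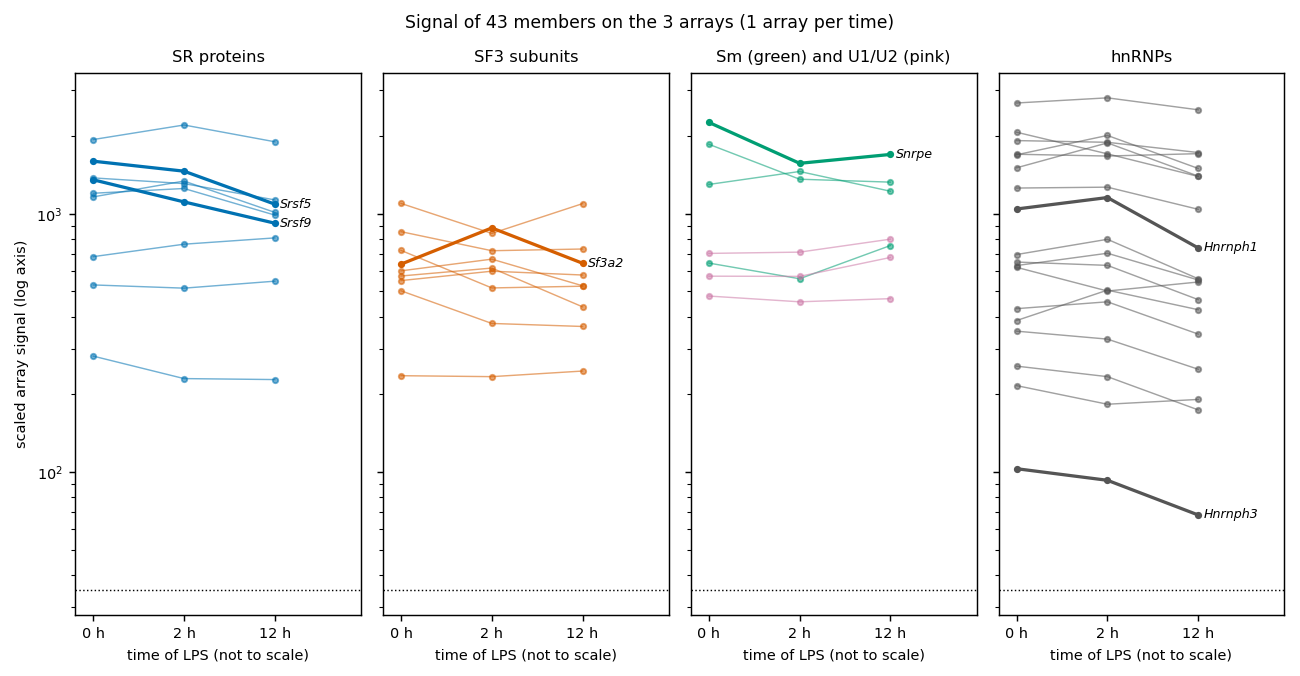
Scaled array signal (log axis) of the 43 measured genes at 0, 2 and 12 h of LPS, 1 line per gene, in panels by role; the dotted line is the floor of 34.96. Lines stay nearly level, and the genes in bold, named at the right, are those described at the ends of the ranges, such as Hnrnph3, from 103 at 0 h to 68.2 at 12 h.

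After 2 h of LPS the splicing genes were close to their level at 0 h. None of the 43 was at least 1.5-fold higher, where 5.6% of all measured genes were, and none was at least 1.5-fold lower, where 9.64% were. None reached 2-fold either (2.09% higher and 1.69% lower among all genes). The median log2 difference was -0.022, against -0.10 over all 8422 measured genes, with 24 genes below 0 and 19 above. Differences ran from -0.53 to 0.47, and their SD across genes was 0.24, against 0.50 across all measured genes. That SD was 0.48 across the 7318 genes above the floor on all 3 arrays. Neither set was matched to the splicing genes by signal, here or at 12 h. Whether signal level accounts for the smaller SD or the lower counts was not tested. The sign of so small a median was not stable across scalings. With a common median on all arrays, which moved the median of all genes from -0.10 to 0.031, 30 of the 43 were above 0 and 13 below, with a median of 0.12 and Sf3a2 past 1.5-fold. Under quantile normalization 26 were below 0, the median was -0.072 and Snrpe was past 1.5-fold. The median of the splicing genes minus that of all genes was 0.082 as reported, 0.091 with median scaling and -0.024 with quantile normalization.

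The lowest at 2 h was Snrpe, a protein of the Sm ring, with signals of 2257 at 0 h, 1567 at 2 h and 1696 at 12 h. It was 1.44-fold lower at 2 h and 1.33-fold lower at 12 h than at 0 h. Snrpg, its neighbour in the ring, went the same way, with signals of 1857, 1360 and 1325, or 1.37-fold and 1.4-fold lower. The brightest probe set of both genes carries a suffix that marks probes shared with other transcripts, of the same or another gene. A probe set of Snrpg without one read 892, 748 and 594. The other 2 measured Sm genes did not share this course. Snrpd3 had signals of 644, 560 and 753 and was highest at 12 h, although a dimmer probe set, at 71.4, 74.2 and 56.9, was lowest then. Snrpb had 1298, 1457 and 1222 and was highest at 2 h. Over the 4 measured Sm genes the median was -0.33 at 2 h and -0.25 at 12 h against 0 h, and 3 of 4 were below 0 both times. This median stayed below 0 at 2 h under every scaling, floor and probe set choice tried (-0.41 to -0.18), whereas the medians of the SF3, SR, hnRNP and U1 or U2 groups at 2 h took both signs. The Sm genes behind it are few and change with the setting. Probe sets without a suffix leave 2, without Snrpe, and a pseudocount in place of the floor gives 5, with Snrpn counted. The median of all genes at 2 h was -0.10 as reported and 0.031 with median scaling.

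The highest at 2 h was Sf3a2, a subunit of SF3a, with signals of 638 at 0 h, 881 at 2 h and 643 at 12 h. It was 1.38-fold higher at 2 h and back to 1.01-fold at 12 h, and its second probe set gave a smaller step, with signals of 121, 136 and 114. Its partner Sf3a3 read the other way, 503, 376 and 366, or 1.34-fold lower at 2 h, although its second probe set, at 327, 330 and 294, showed no such step. Sf3a1 read 236, 234 and 246, and 63.3, 47.5 and 54 on a second probe set, 1.33-fold lower at 2 h. In SF3b, Sf3b2 was 1.4-fold lower at 2 h by its brightest probe set (721, 516 and 524), whereas its 3 other probe sets had log2 differences of -0.031 to 0.105 at that time. Sf3b4 had signals of 1096, 839 and 1094, lower at 2 h only, and its second probe set was level at 317, 322 and 298.

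Sf3b1, the subunit that clasps the branch point, had signals of 852, 719 and 730, and its second probe set was level at 483, 515 and 502. Sf3b3 had 601, 667 and 526. Sf3b6, which lies at the branch point adenosine, read 551, 599 and 579, but 2 other probe sets were lower at both times, at 519, 444 and 457 and at 222, 161 and 162 (1.38-fold lower at 2 h). Sf3b5 was level at 2 h and lower at 12 h, with 574, 616 and 436, a 1.32-fold difference from 0 h. Over the 9 SF3 subunits the median was -0.013 at 2 h and -0.19 at 12 h. By its brightest probe set no member reached 1.5-fold in any comparison. A dimmer probe set of Sf3b2, at 384, 376 and 250, was lower at 12 h by 1.54-fold than at 0 h and by 1.51-fold than at 2 h. The others of Sf3b2 had log2 differences of -0.459 to -0.072 at 12 h against 0 h.

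**Figure D2:**
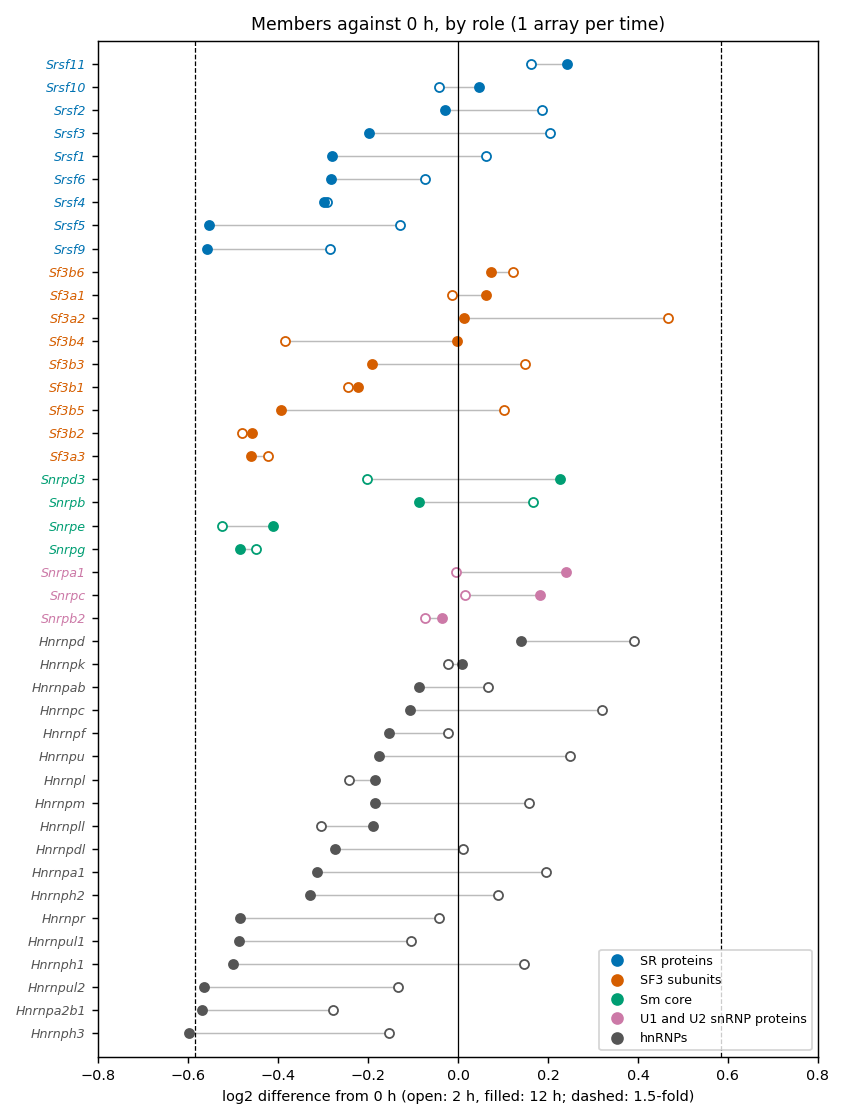
Log2 difference from 0 h of each measured gene at 2 h (open circle) and 12 h (filled circle), ordered by role and by the 12 h value; dashed lines mark 1.5-fold. At 2 h the circles lie between -0.53 and 0.47, at 12 h 33 of 43 lie below 0, and only Hnrnph3 passes the left dashed line.

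After 12 h the splicing genes were slightly lower. Of 43, 33 were below their 0 h signal and 10 above, where 54.7% of all measured genes were below, and the median log2 difference was -0.19 against -0.047 over all 8629 measured genes. The size was small: 1 gene, Hnrnph3, was at least 1.5-fold lower (10.3% of all measured genes), none was at least 1.5-fold higher (8.32%), and none reached 2-fold (2.4% lower and 3.01% higher). Differences ran from -0.60 to 0.24. Among the 7318 genes that, like these 43, were above the floor on all 3 arrays, 10.5% were at least 1.5-fold lower at 12 h and 7.76% higher. The median of the splicing genes minus that of all genes was -0.145 as reported, -0.142 with median scaling and -0.229 with quantile normalization, so its direction was the same under all 3. By the median over each gene's probe sets, 40 of 43 were below 0, where 55.5% of all measured genes were.

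Against 2 h, the 12 h signals were lower for 29 of 43 genes, where 44.2% of all measured genes were lower. The median was -0.22, against 0.051 over all 8467 measured genes. Hnrnph1 was the 1 gene at least 1.5-fold lower (6.45% of all genes), none was at least 1.5-fold higher (10.2%), and none reached 2-fold (1.98% lower and 2.65% higher). The 3 comparisons share arrays, so they are not independent of each other.

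**Figure D3:**
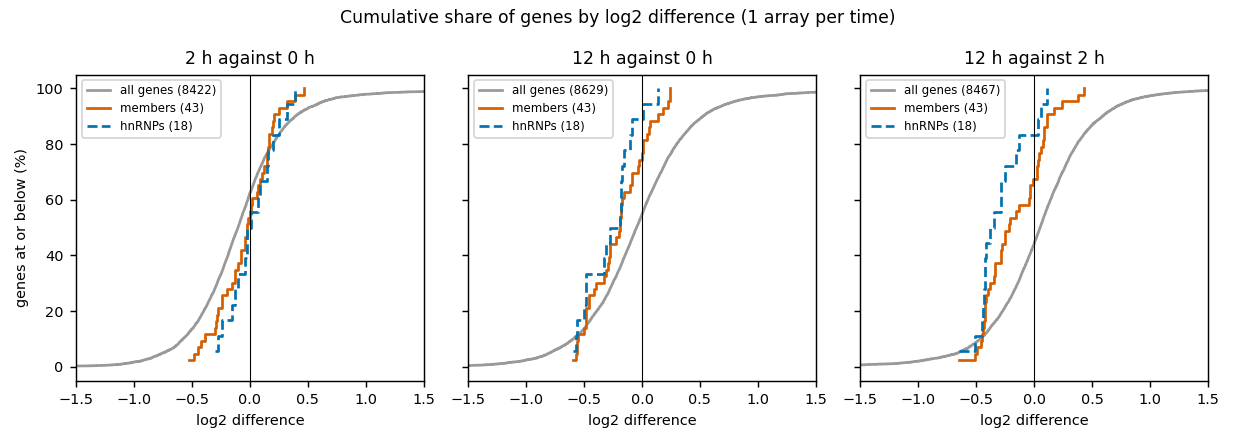
Cumulative share of genes (percent, vertical axis) by log2 difference in the 3 comparisons, for all measured genes (grey), the 43 splicing genes (orange) and the 18 hnRNPs (blue, dashed). The orange and blue curves are steeper than the grey one, and in both comparisons of 12 h they lie to its left over most of the range, with medians of -0.19 and -0.22 for the 43 genes.

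The hnRNPs were the largest group, and most of them had lower signals at 12 h. Of 18, 16 were below 0 h, with a median of -0.23, and 15 were below 2 h, with a median of -0.36. At 2 h they were divided evenly, with 9 above 0 h and 9 below and a median of -0.005. Hnrnpd, whose protein AUF1 binds AU-rich elements of cytokine mRNAs and affects their decay, and Hnrnpk, which binds C-rich RNA, were the 2 not below 0 h at 12 h. The 12 h median of the hnRNPs against 0 h was between -0.30 and -0.19 under every alternative tried. Whether hnRNPs differed from the other splicing genes was not tested.

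Hnrnph3, of the hnRNP H and F family that binds runs of G, had signals of 103 at 0 h, 92.9 at 2 h and 68.2 at 12 h. It was 1.51-fold lower at 12 h than at 0 h by its 1 probe set, just past the size that counts. It was under that size with median scaling, quantile normalization, the floor at the 60th percentile or a pseudocount (log2 difference -0.29 to -0.55), and past it with the deposited values (-0.60) and the floor at the 20th percentile (-0.60). Hnrnph1, the main member of that family, had 1043, 1155 and 737 and was 1.57-fold lower at 12 h than at 2 h. Its second probe set, at 159, 125 and 141, did not show this, and the median over both was a log2 difference of -0.24. Hnrnph2 had 429, 456 and 342, and Hnrnpf 1919, 1890 and 1725. By the brightest probe set these 4 genes thus had their lowest signal at 12 h, and none was at least 1.5-fold apart from 0 h at 2 h. Other probe sets of Hnrnpf differed, with 625, 1054 and 670 (1.69-fold higher at 2 h), 1042, 1104 and 1154 (highest at 12 h) and 1169, 1109 and 980.

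Hnrnpa2b1, one of the abundant core hnRNPs, had signals of 2067 at 0 h, 1705 at 2 h and 1394 at 12 h, 1.48-fold lower at the end. Its other probe sets disagreed: those read 1350, 947 and 1431, 992, 671 and 1002, and 371, 385 and 345, so its course depends on the probe set. Hnrnpa1, its relative, had 695, 796 and 560, and 522, 561 and 451 on a second probe set, both highest at 2 h. Both of those probe sets carry a suffix, the third read under the floor on all arrays, and Hnrnpa1 has many processed pseudogenes, so which copies they read is uncertain. Hnrnpc, a core hnRNP that binds runs of U, had 1506, 1880 and 1398, and 205, 256 and 168 on its second probe set, again with the highest signal at 2 h on both. Hnrnpd had 386, 506 and 425, 1.31-fold higher at 2 h and 1.1-fold higher at 12 h. No gene of this set was 1.5-fold apart from 0 h at either time.

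Hnrnpr had signals of 650, 631 and 465, or 1.4-fold lower at 12 h, and its other probe sets had log2 differences of -0.33 and -0.90. Hnrnpu, a nuclear scaffold protein, had 1691, 2009 and 1497 by its brightest probe set; all 5 of its probe sets were lower at 12 h than at 0 h, by -0.18 to -0.57 on the log2 scale. Hnrnpul1 had 351, 327 and 250, and Hnrnpul2 had 257, 234 and 174, 1.4-fold and 1.48-fold lower at 12 h. The second probe set of Hnrnpul2 read 180, 176 and 201, which is higher at 12 h. Hnrnpdl, Hnrnpm, Hnrnpl, which binds CA repeats, and Hnrnpll, known for splicing of the Cd45 mRNA in T cells, were 1.14-fold to 1.21-fold lower at 12 h, and a second probe set of Hnrnpll, at 236, 198 and 153, was 1.55-fold lower. The 6 probe sets of Hnrnpdl had log2 differences of -0.94 to -0.019 at 12 h against 0 h. The lowest of them, at 332, 232 and 172, was 1.92-fold lower. Hnrnpk was level at 1699, 1672 and 1708 by its brightest probe set alone. Others of Hnrnpk were highest at 2 h, at 1324, 1973 and 1502 (1.49-fold higher than at 0 h) and at 1063, 1369 and 939, and the last read 182, 157 and 173.

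Among the SR proteins, 7 of 9 were below 0 h at 12 h, with a median of -0.28, and at 2 h the median was -0.043 with 5 below. Srsf9 had signals of 1353, 1111 and 919, and Srsf5 had 1597, 1461 and 1089. Both were 1.47-fold lower at 12 h, each by 1 probe set, and stepped down at both times. Srsf1, the prototype of the family, had 1200, 1252 and 988, and Srsf3, the smallest SR protein, had 1162, 1338 and 1012, so by the brightest probe set both were highest at 2 h and lowest at 12 h. Over all their probe sets the 2 h peak was not shared: 3 of 6 of Srsf1 and 4 of 6 of Srsf3 were below 0 h at 2 h. Srsf2 had 1937, 2205 and 1899, and its other probe sets were lower at 12 h than at 0 h by -0.32 to -0.52 on the log2 scale. Srsf6 had 1376, 1308 and 1131, and all 3 of its probe sets were lower at 12 h than at 0 h. Srsf4 had 281, 230 and 228.

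Srsf11 and Srsf10 were the 2 SR genes above 0 h at 12 h. Srsf11 had 682, 762 and 806 and was 1.18-fold higher at 12 h, the highest value among the brightest probe sets then, but its second probe set read 203, 143 and 144. Srsf10, a splicing repressor when dephosphorylated, was level at 530, 515 and 548 by its brightest probe set. Another of its 4 probe sets read 338, 218 and 226, 1.55-fold lower at 2 h. The direction of both genes is therefore uncertain.

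The proteins specific to the U1 and U2 particles were nearly level by their brightest probe sets. Snrpc, which stabilises U1 at the 5′ splice site, had signals of 702, 710 and 797. Snrpb2 of the U2 particle had 480, 456 and 469, and Snrpa1, its partner there, had 573, 572 and 677. The largest difference from 0 h among these signals was 1.18-fold, for Snrpa1 at 12 h. Its other probe sets went apart: one read 532, 539 and 396, 1.34-fold lower at 12 h, and one read 293, 689 and 313, 2.35-fold higher at 2 h. A second probe set of Snrpb2, at 407, 401 and 334, was 1.22-fold lower at 12 h.

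By SD on the log2 scale, probe sets of 1 gene disagreed by more than the brightest probe sets of the genes differed. For 2 h against 0 h the pooled SD of probe sets in 29 genes was 0.29. The SD across the brightest probe sets of the 43 genes was 0.24. These were 0.35 and 0.25 for 12 h against 0 h, and 0.34 and 0.26 for 12 h against 2 h. The pooled SD includes dimmer probe sets, so the compared sets are unlike. Of 29 genes with several probe sets at or above the floor, all went in 1 direction for 8 at 2 h, for 15 at 12 h against 0 h and for 12 at 12 h against 2 h. None had probe sets at least 1.5-fold apart from 0 h in opposite directions. Over all 109 measured probe sets of the splicing genes, 11 were at least 1.5-fold lower at 12 h than at 0 h (10.7% of all single-gene probe sets) and none was at least 1.5-fold higher (8.51%). Of them 87 (79.8%) were below 0, against 55.2% of all single-gene probe sets. At 12 h against 2 h, 14 of the 109 (12.8%) were at least 1.5-fold lower, above the 7.24% of all single-gene probe sets, and 1 was higher (9.57%), so this count lies on the other side of its background from the count of genes by brightest probe set, 1 of 43 against 6.45%. At 2 h against 0 h, 2 were at least 1.5-fold higher (5.96%), from Hnrnpf and Snrpa1, and 2 lower (9.29%), from Srsf3 and Srsf10.

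At least 2-fold lower at 12 h were 3 of those probe sets (2.53% of all), each from a gene whose brightest probe set was much closer to 0 h. A probe set of Hnrnpab read 2285, 2190 and 766, 2.98-fold lower at 12 h. The other 6 of Hnrnpab had log2 differences of -0.52 to 0.34, and the brightest read 2683, 2809 and 2525. A probe set of Srsf1 read 167, 140 and 67.9, 2.46-fold lower, and one of Srsf3 read 120, 77.3 and 50.9, 2.37-fold lower. For Srsf3 all 6 probe sets were lower at 12 h, by -0.20 to -1.24 on the log2 scale. For Srsf1 5 of 6 were, and its sixth had a log2 difference of 0.013. These probe sets were singled out after their values were seen. Which transcript forms the probe sets read is not given in the sources used here, so a change in 1 form of the mRNA was not tested.

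**Figure D4:**
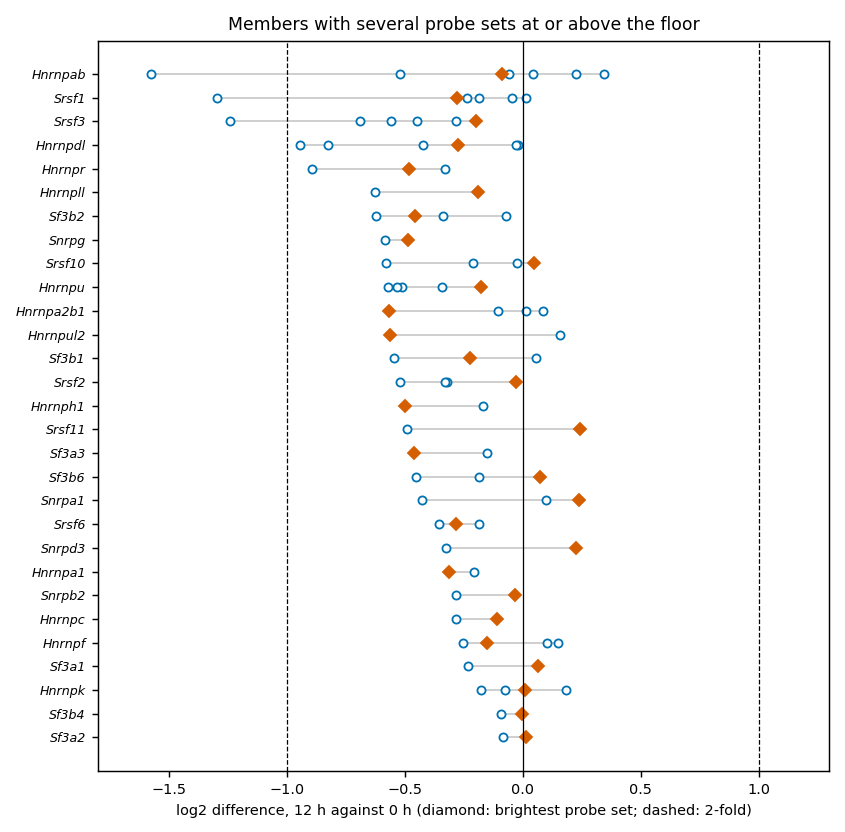
Log2 difference at 12 h against 0 h of every probe set at or above the floor on at least 1 of those arrays, for the 29 genes with several; diamonds are the brightest probe set of each gene, open circles the others, and dashed lines mark 2-fold. Values under the floor at 12 h (1 probe set each of Hnrnpdl and Sf3b1) are set to it. Most circles lie left of 0, and 3 lie beyond the left dashed line, from Hnrnpab, Srsf1 and Srsf3.

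Other genes of the pathway were described in 3 lists that hold no member. They were read by their brightest probe sets alone, and further probe sets of these genes were not compared. SR-like factors and the kinases that phosphorylate SR proteins had medians of -0.035 at 2 h and -0.059 at 12 h against 0 h, and none of 23 was 1.5-fold apart in any comparison. In that list Clk1, a kinase of SR proteins, had signals of 284, 238 and 197, and Tra2b, an SR-like activator, had 1137, 1481 and 1158. Of 52 other spliceosome proteins measured at 2 h, 1 was at least 1.5-fold lower, Lsm7 (9.64% of all measured genes), and none higher (5.6%), with a median of 0.041. At 12 h against 0 h the median of 51 was -0.15, with Lsm2 1.91-fold and Lsm7 1.52-fold lower (10.3% of all measured genes) and Prpf6 1.53-fold higher (8.32%). Lsm2 and Lsm7 belong to the Lsm ring, which binds U6 RNA; their signals were 340, 270 and 178 for Lsm2 and 428, 284 and 281 for Lsm7. U2af2, which reads the pyrimidine tract before the 3′ splice site, had 584, 699 and 409 and was 1.71-fold lower at 12 h than at 2 h. Lsm2 was 1.52-fold lower in that comparison, so 2 of 52 were at least 1.5-fold lower, where 6.45% of all measured genes were.

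Among 37 other RNA-binding regulators of splicing the median was -0.074 at 2 h and -0.18 at 12 h against 0 h. Raly and Matr3 were 1.62-fold and 1.51-fold higher at 2 h, 2 of 37 where 5.6% of all measured genes were, with none lower (9.64%). At 12 h against 0 h, 4 were at least 1.5-fold lower, namely Sfpq (740, 700 and 420), Mbnl1 (2176, 1648 and 1311), Gemin7 and Pspc1, near the 10.3% of all measured genes, and 2 were higher (8.32%), Rbm5 (315, 339 and 497) and Wdr77 (648, 959 and 1012), whose product works with the methyltransferase that modifies Sm proteins. Ewsr1 had 486, 700 and 335, so that it was 2.09-fold lower at 12 h than at 2 h, the only gene of these lists at 2-fold. Matr3 and Sfpq were lower by 1.55-fold and 1.67-fold in that comparison, so 3 of 37 were at least 1.5-fold lower, where 6.45% of all measured genes were.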

How the data were processed

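The deposited table holds 1 linear intensity per probe set and array, for 3 arrays and 22690 probe sets, 64 of them controls, and no detection calls. Per the labels' protocols, hybridisation targets were produced out of 5 µg of kit-extracted total RNA with a modified Affymetrix method. Scanner software and normalization: not given in the sources used here. On each array the 2% trimmed mean was 150.05, so values had been scaled before deposit. Here they were set to 1 shared 2% trimmed mean without the controls, a move of at most 0.16%.

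Gene names came from GEO's platform annotation: 20380 non-control probe sets had 1 gene, 691 had several and were not used. Values under the floor (40th percentile, 34.96) were set to it before log2, and the probe set with the highest mean log2 signal then stood for a gene; where both arrays were under the floor, no difference was taken. Each time had 1 array, so nothing was tested. Counting was tested on simulated data (Python 3.11.15, numpy 2.4.6, pandas 2.3.3, scipy 1.17.1). The planted differences were much larger than those of the splicing genes, so this does not show how well small differences are counted.

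The members, lists, folds and alternatives were chosen with earlier results of these data known. Genes at least 1.5-fold apart in any comparison were to be named in detail (up to 15), as were genes with probe sets at least 1.5-fold apart in opposite directions. Hnrnph1 and Hnrnph3 met the first part and none the second; other genes are described by role and were chosen after their values were seen. For the pathway lists the rule was up to 3 genes each; all past 1.5-fold are named instead, and Clk1 and Tra2b were added after their values were seen. Choosing the probe set after the floor was settled after values were seen, as were the promoter motifs shown; searches for longer NF-kB, interferon response and NRF1 motifs were also made and are not reported here. Alternatives were other scalings (as deposited, to 1 median, by quantiles), other floors (20th or 60th percentile, or a pseudocount of 32 and no floor), the median over probe sets, probe sets without a suffix, a fold of 2 and, added after seeing the data, the probe set chosen before the floor.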

Additional observations from a re-analysis of the deposited data

How the results depend on the processing

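The median log2 difference of the splicing genes moved by less than the SD between probe sets of all genes under every alternative. That SD (0.32, 0.34 and 0.31 in the 3 comparisons) is larger than each median as reported. A full loss of the difference would pass it too, so it does not show that the medians were stable. The median was between -0.073 and 0.12 for 2 h against 0 h, where its sign turned with median scaling. It was between -0.25 and -0.15 for 12 h against 0 h, and between -0.31 and -0.18 for 12 h against 2 h. Counts of genes past 1.5-fold were too low to be stable. For 2 h against 0 h, median scaling gave 1 gene higher, and quantile normalization and probe sets without a suffix gave 1 lower each, in place of 0. For 12 h against 0 h, 1 gene was lower as reported; the count was 0 with median scaling, the floor at the 60th percentile, the pseudocount and the fold of 2, and 3 with quantile normalization and with probe sets without a suffix. For 12 h against 2 h, where 1 gene was lower as reported, the count was 3 with median scaling, 2 with probe sets without a suffix and 0 with the fold of 2. Probe sets without a suffix measured 33 of the genes. The cause of these shifts was not tested. With the probe set chosen before the floor, an alternative added after seeing the data, the counts and medians of the splicing genes were the values reported, and 8413, 8619 and 8457 genes were measured in the 3 comparisons in place of 8422, 8629 and 8467. No splicing gene was 2-fold apart in any comparison under any alternative. Hnrnph3 at 12 h against 0 h had a log2 difference of -0.553 with median scaling, -0.548 with quantile normalization, -0.29 with the 60th percentile floor and -0.43 with the pseudocount, all under 1.5-fold. No paired analysis was possible because each time has 1 array.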
